A study of Homo sapiens with 24 samples.

Results

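The measurements concern MM1R, a glucocorticoid (GC) resistant human myeloma cell line, treated with the synthetic GC dexamethasone (Dex) or left untreated. MM1R is a B-lymphoblast line that was selected from the GC sensitive line MM1S by chronic exposure to Dex, so both MM1R groups carry the same history of selection and represent 1 resistant subclone. The 6 arrays, of 24 in the series, were chosen by their labels: 3 of MM1R cells given 1 µM Dex for 72 h and 3 of untreated MM1R cells, each from independent experiments according to the methods. No other agent or transfection was applied to these groups, and the 3 Dex and 3 untreated arrays of MM1S served only as the reference for a GC response. The question was how far gene expression in MM1R can have moved with Dex, gene by gene.

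Dex diffuses into the cell and binds the GC receptor (GR, NR3C1), which leaves a complex with Hsp90 and its co-chaperones, enters the nucleus and binds DNA as a dimer at palindromic GC response elements. Bound receptor raises transcription of genes such as TSC22D3 (also called GILZ), FKBP5 and DDIT4, and tethering to NF-kB and AP-1 lowers that of inflammatory genes. In sensitive lymphoid and plasma cells GCs stop the cell cycle and trigger apoptosis, which is why they are used against myeloma.

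RNA was hybridised to Illumina HumanHT-12 bead arrays, and values are log2 intensities after quantile normalization by the authors, so that a difference of 1 is 2-fold. No background was subtracted, which compresses the fold changes of dim probes. A probe was kept if its signal exceeded background, at a detection p under 0.05, on at least 3 of the 6 arrays. This left 18031 of 47220 probes and 10261 of 20045 genes, and each gene was read by its brightest probe, while it counts as called if at least 1 of its probes passed. Arrays have no read depth, and the precision is set by 3 arrays per group. Between 17059 and 18806 probes were over background per array. The 9 plasma cell markers, among them SDC1 (CD138), TNFRSF17 (BCMA) and the transcription factors XBP1 and PRDM1, were over background on all 6 arrays. Their mean level was 11.69 to 11.85 with Dex and 11.74 to 11.93 without. No B cell, T cell, monocyte or fibroblast marker was over background on all arrays. The mean levels of these 4 lists lay between 6.93 and 7.14 on every array, and PAX5, CD3D, CD3E, CD8A, LYZ, CSF1R, S100A8 and COL1A1 were over background on none.

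One array stood apart before any comparison was made. The root mean square log2 difference between Dex replicate 1 and each of the other arrays was 0.249 to 0.263, against 0.145 to 0.230 among the remaining 5. In that array 200 genes lay over 1.5-fold from the median of the other arrays, 162 of them higher, whereas the other arrays had 5 to 46 such genes. The closest pair joined the groups, since Dex replicate 2 and untreated replicate 2 differed by only 0.145, less than any pair of untreated arrays did. By title numbers, Dex replicates 1, 2 and 3 were each nearest to the untreated array of the same number, at 0.249, 0.145 and 0.164. Whether same-numbered arrays share an experiment was not tested. Genes of small nuclear, nucleolar and ribosomal RNAs, a set of 120 tested genes chosen after their values were seen, averaged 0.214 log2 units above the untreated mean in Dex replicate 1, against -0.047 and 0.046 in Dex replicates 2 and 3. List medians and the largest changes are given without this array too where it moved them, and what set it apart was not tested.

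**Figure D1:**
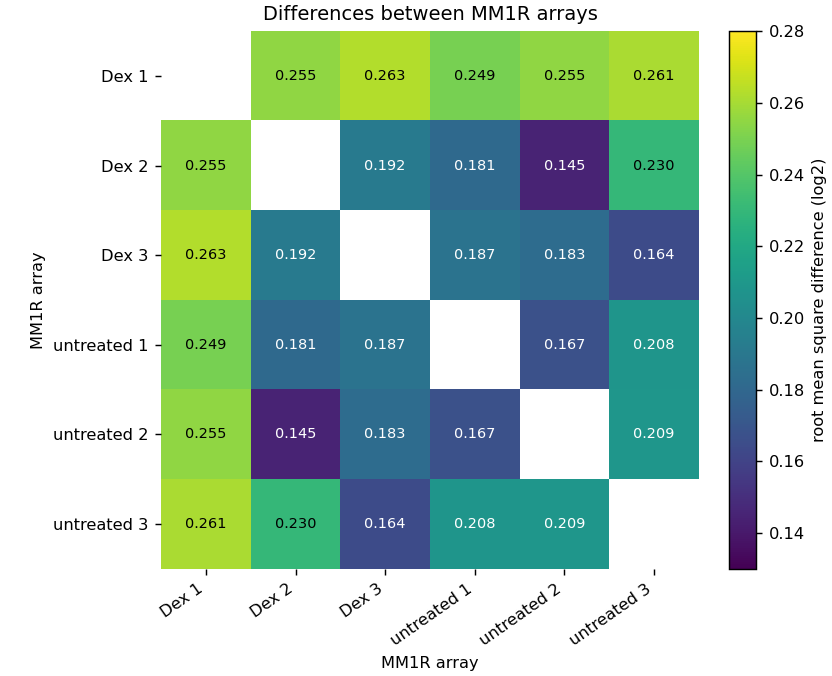
Root mean square log2 difference between each pair of the 6 MM1R arrays over the 18031 probes kept, with the colour scale in log2 units. The row of Dex replicate 1 holds the highest values, 0.249 to 0.263. Dex replicates 2 and 3 each lie nearest to the untreated array of the same number, at 0.145 and 0.164, against 0.192 to each other.

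No gene in MM1R passed the test for a response to Dex. With limma and an adjusted p under 0.05 at a fold change over 2, 0 of 10261 genes (0%) were called in either direction, and the lowest adjusted p of any probe was 0.9992. At an unadjusted p under 0.05, 131 genes (1.28%) were higher and 93 (0.906%) were lower with Dex. Over probes this was 508 of 18031, or 2.82%, fewer than the 902 that make up 5%. Without Dex replicate 1, 0 of 10055 genes were called and 2.6% of probes had an unadjusted p under 0.05. These fits took the arrays as unpaired. With a replicate block by titles 0 genes were called, and the lowest adjusted limma p was 0.488.

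The changes themselves were small. The log2 change over the 10261 genes had an SD of 0.107 and a median of -0.00468, and 48.1% of genes were higher with Dex. From the 1st to the 99th percentile the changes ran from -0.236 to 0.291. In MM1S the same measure had an SD of 0.383 over 10774 genes, with changes from -2.27 to 5.43. Only 7 MM1R genes differed over 1.5-fold and 0 over 2-fold, against 1054 and 322 genes in MM1S. With both limits applied to any probe of a gene, 120 genes (1.11%) rose and 224 (2.08%) fell in MM1S by the same limma test on its own 6 arrays, and 114 and 207 by the brightest probe alone.

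A missed threshold does not show that expression was equal, and the intervals give the bound. The 95% interval of the change extended a median of 0.238 log2 units to either side, a factor of 1.18. For 10075 genes (98.2%) the whole interval lay within 1.5-fold, and for 10250 genes (99.9%) within 2-fold. The farther bound had a median of 0.309 log2 units, or 1.24-fold. A pair of one-sided limma tests against the same limits, adjusted over all probes, placed 10250 genes within 2-fold and 10160 within 1.5-fold. Intervals widened to cover all probes at once placed 6511 genes (63.5%) within 2-fold. The share within 1.5-fold was 99.8% among the 2566 dimmest genes and 97% to 98.3% in brighter bins of 2565 genes. It was 94.7% over all genes after normexp background correction. That step adds an offset of 50, which still compresses the folds of dim probes. Since each array was scaled to a common distribution, a shift of all genes together would not be seen, and in bulk RNA a change in fewer cells and a weaker change in every cell cannot be told apart.

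**Figure D2:**
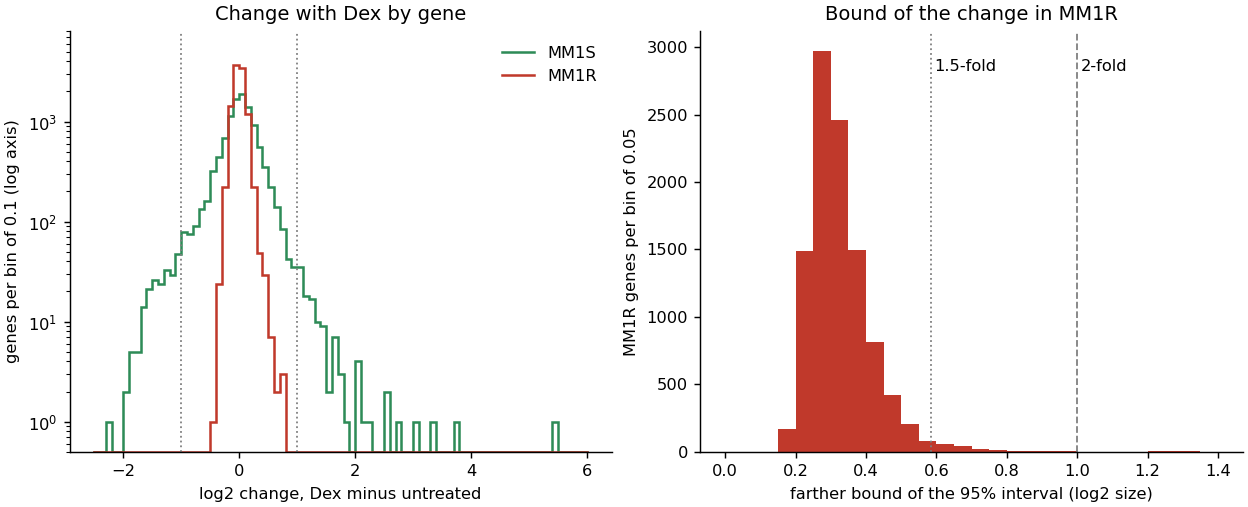
Left, genes per bin of 0.1 by log2 change with Dex in MM1R (10261 genes) and MM1S (10774 genes) on a logarithmic count axis, with dotted lines at 2-fold; right, MM1R genes per bin of 0.05 by the farther bound of the 95% interval in log2 units. MM1R changes stayed between -0.40 and 0.77, and 10075 genes had both bounds within 1.5-fold.

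The 11 genes whose interval reached past 2-fold were all highest in Dex replicate 1 and were largely of 1 kind. They held 18S ribosomal RNA (RNA18SN5) and 6 spliceosomal small nuclear RNAs, RNU4-2, RNU4ATAC, RNVU1-18, RNU1-3, RNVU1-7 and RNU1-1. The U1 genes among them have near-identical copies, and a probe may read several of these. RNU1-1, a U1 RNA that recognises the 5′ splice site, read 10.20, 8.43 and 8.93 with Dex and 8.40, 8.50 and 9.41 untreated. Only Dex replicate 1 exceeded untreated replicate 3. The 4 others were NBPF10 and NBPF9, members of another repeated family, the RNA helicase DDX17 and the nucleolar GTP-binding protein GNL3L. NBPF10 had the highest change of all genes, 0.77 (95% interval 0.32 to 1.21), with 12.17, 11.84 and 11.27 against 10.96, 11.33 and 10.67, and its groups overlapped. At the other end RPL14, a protein of the large ribosomal subunit, had the lowest change at -0.40. These genes are named because of their values.

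The receptor itself was not measurable in MM1R. NR3C1 has 3 probes on the array, and none was over background on at least 3 of the 6 MM1R arrays. Its brightest probe in MM1S read 7.06, 6.91 and 7.10 in MM1R with Dex and 6.95, 7.01 and 6.91 without, and it was over background on 0 of these 6 arrays. In MM1S the same probe read 7.92, 7.98 and 8.07 untreated and 7.76, 7.80 and 7.91 with Dex, over background on all 6. Every MM1R value lay below every MM1S value. A second probe exceeded background on 1 MM1R array, Dex replicate 2 at 7.32. It averaged 7.06 ± 0.06 (SD) in untreated MM1R and 7.10 ± 0.13 in untreated MM1S. The remaining probe averaged 7.04 in both untreated groups and was over background on 0 MM1R and 0 MM1S arrays of these groups. The contrast between the lines thus rests on the first probe. The mineralocorticoid receptor NR3C2, which also binds GCs, was over background on all 6 MM1R arrays. Its brightest probe averaged 7.55 ± 0.13 (SD, n = 3) with Dex and 7.59 ± 0.05 without.

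Of 24 genes for the receptor and its partners 16 were tested, 0 were called, 7 were higher and 9 lower, with a median log2 change of -0.0272 (0.0380 without Dex replicate 1). All 16 intervals lay within 1.5-fold. FKBP4, the co-chaperone that helps carry the receptor to the nucleus, read 9.71, 9.98 and 9.83 with Dex and 9.39, 9.81 and 9.77 untreated. This was the largest change of the list, 0.18 ± 0.13 (SE). HSP90AA1, an Hsp90 isoform, changed by 0.11 ± 0.10 and HSP90AB1, the other cytosolic isoform, by -0.12 ± 0.11. HDAC2, a deacetylase that the receptor recruits to inflammatory genes, changed by -0.16 ± 0.13, and by -0.06 without Dex replicate 1. The groups overlapped for each of these genes.

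Genes that the bound receptor induces were read next. Of 42 receptor-induced genes on the array 30 were tested, and 0 were called (the background over all genes was 0%). Their log2 changes were centred near 0, with 14 higher, 16 lower and a median of -0.00874 against -0.00468 for all genes. Without Dex replicate 1 the list's median was -0.0556, and without Dex replicate 2 or 3 it was -0.0491 or -0.0366. The values ran from -0.20 for KLF13 to 0.36 for NFKBIA, 29 of 30 intervals lay within 1.5-fold and 30 within 2-fold. The farthest bound of any member was 1.63-fold. In MM1S 32 genes of the same list were tested, with a median of 1.03. There 24 rose and 1 fell at an adjusted limma p under 0.05 in at least 1 probe, where 19.6% of all genes rose and 17.8% fell, and 23 and 1 did by the brightest probe.

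DDIT4, an inhibitor of mTORC1 signalling, had the strongest response in MM1S, 5.43 ± 0.09 (43.2-fold). In MM1R it read 9.78, 9.61 and 9.39 with Dex and 9.94, 9.72 and 9.72 untreated. The groups overlapped, with the lowest readings among the Dex arrays. Its change was -0.20 ± 0.13 (95% interval -0.47 to 0.08), so that the upper bound was 1.05-fold.

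TSC22D3 encodes the leucine zipper protein GILZ, which mediates part of the anti-inflammatory action of GCs. It read 11.46, 11.35 and 10.91 with Dex and 11.35, 11.08 and 11.06 untreated in MM1R, a change of 0.07 ± 0.15 (-0.24 to 0.39). The spread within the Dex arrays was larger than the difference between the groups. Its other tested probes gave 0.00 and -0.05. In MM1S the change was 3.77 ± 0.12, from a lower start: untreated MM1S arrays averaged 8.93 ± 0.07 (SD) and untreated MM1R arrays 11.16 ± 0.16, while Dex-treated MM1S arrays averaged 12.70 ± 0.27. All 6 MM1R arrays lay between both MM1S groups.

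FKBP5, the co-chaperone that lowers the affinity of the receptor for hormone and is induced as feedback, read 9.72, 10.05 and 9.73 with Dex and 9.70, 10.06 and 9.69 untreated. In both groups the high reading was that of replicate 2 by title, and the change was 0.02 ± 0.14 (-0.28 to 0.32). In MM1S it rose by 3.40 ± 0.12 to 13.31 ± 0.13 (SD) from 9.91 ± 0.27, a level close to that of untreated MM1R at 9.82 ± 0.21.

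FBXO32, a ubiquitin ligase subunit known from muscle atrophy, read 8.43, 8.30 and 8.43 with Dex and 8.38, 8.28 and 8.66 untreated. PIK3IP1, an inhibitor of PI3 kinase, read 8.60, 8.66 and 8.68 against 8.44, 8.68 and 8.76. CXCR4, the chemokine receptor that holds plasma cells in the marrow, read 9.22, 9.81 and 9.55 against 9.81, 9.63 and 9.21. In all 3 genes the groups overlapped. Their changes of -0.06, 0.02 and -0.02 contrasted with rises of 3.05, 2.12 and 2.08 in MM1S, each with an SE of 0.10.

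KLF9, a Krüppel-like transcription factor, changed by -0.02 ± 0.11 in MM1R and 1.70 ± 0.10 in MM1S. SESN1, a stress-induced regulator of mTORC1, changed by -0.09 ± 0.14 and 1.44 ± 0.10. DUSP1, a phosphatase that switches off MAP kinases, changed by -0.11 ± 0.12 and 1.31 ± 0.29. The pro-apoptotic BH3-only gene BMF changed by -0.07 ± 0.12 in MM1R against 1.57 ± 0.10 in MM1S. BCL2L11 (BIM), the BH3-only gene best known for GC-induced death of lymphoid cells, changed by 0.08 ± 0.11 in MM1R. The same probe gave -0.25 ± 0.09 in MM1S. Its other tested probes gave 0.07 and 0 in MM1R, and their MM1S changes are not given here. SGK1, a kinase induced by GCs in many tissues, changed by 0.00 ± 0.12 in MM1R and 0.02 in MM1S by 1 probe. Its other tested probes gave 0.12, 0.16 and 0.04 in MM1R, and their MM1S changes are not given here. The paper names SGK1 among receptor targets affected by GC treatment in MM1S.

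In MM1S 16 of the 32 receptor-induced genes tested there rose over 2-fold at an adjusted limma p under 0.05. Of the 30 tested in MM1R, read by the same probe in both lines, 14 were over 2-fold higher with Dex in MM1S. Their rises were 1.10 to 5.43 log2 units, and the bounds given here cover only these 14. In MM1R their changes lay between -0.20 and 0.09. The upper bound of the MM1R interval was 1.42% to 41.2% of the MM1S log2 change, with a median of 12.4%, leaving the error of the MM1S value aside. The highest of these belonged to TXNIP, the inhibitor of thioredoxin, which read 13.60, 12.82 and 12.82 with Dex and 13.21, 12.88 and 12.95 untreated. Only Dex replicate 1 lay above the untreated arrays, and without it the change was -0.19 in place of 0.07.

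NFKBIA, the inhibitor IκBα that holds NF-kB in the cytoplasm, was the 1 member with an unadjusted limma p under 0.05. It read 11.14, 10.69 and 10.42 with Dex and 10.52, 10.39 and 10.25 untreated. The groups overlapped and the highest reading was that of Dex replicate 1. Its change of 0.36 (0.01 to 0.71) became 0.17 without that array. In 4 members the Dex arrays lay wholly below the untreated arrays and in 0 wholly above. Over all genes 3.67% lay wholly below and 3.21% wholly above. These were KLF13, a Krüppel-like transcription factor, at -0.20, the kinase SIK1 at -0.18, the insulin receptor adaptor IRS2 at -0.17 and the metallothionein MT1X at -0.17. None passed the test, and in MM1S their estimates were positive, at 0.65, 2.38-fold for SIK1, 0.59 and 0.30. The other tested probe of SIK1 gave -0.03 in MM1R.

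**Figure D3:**
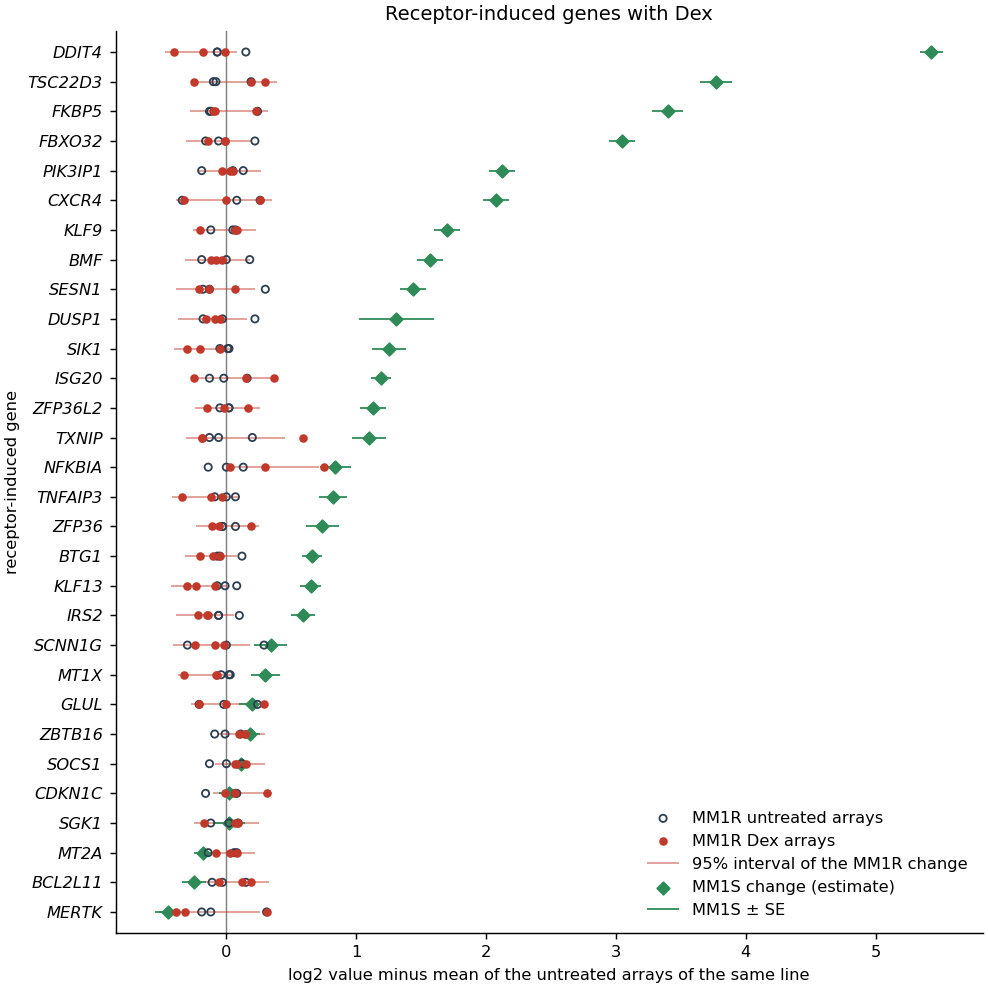
The 30 tested receptor-induced genes, ordered by their MM1S change, with log2 values relative to the mean of the untreated arrays of the same line on the horizontal axis. Filled red points are MM1R Dex arrays, open points MM1R untreated arrays, red lines the 95% interval of the MM1R change, and green diamonds the MM1S change ± SE; MM1R changes lie between -0.20 and 0.36 while MM1S reaches 5.43.

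The difference between the lines was tested in a fit of the 12 Dex and untreated arrays of both. For 23 of 32 receptor-induced genes the Dex effect was lower in MM1R at an adjusted limma p under 0.05 in at least 1 probe (22 by the brightest probe), and for 0 it was higher. Over all 11559 genes of that fit the effect was lower in MM1R for 1115 (9.65%) and higher for 1117 (9.66%). The difference was -5.63 ± 0.15 for DDIT4 (adjusted p = 1.97e-15), -3.70 ± 0.20 for TSC22D3 (3.41e-10) and -3.38 ± 0.19 for FKBP5 (6.96e-10). For NFKBIA it was -0.48 ± 0.22, with an adjusted p of 0.158.

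The receptor binds a palindrome made of GNACA and its reverse complement TGTNC with 3 bases between them, in which N is any base. This form, which reads alike on both strands, was searched in RefSeq promoter windows of the GRCh38.p14 assembly, from 250 bases before to 50 after each start. It was found in 137 of 35116 windows (0.39%), and among 25 tested receptor-induced genes with a window only in that of TXNIP. The match is shown because it is the single one at a gene whose MM1S and MM1R changes were 1.10 and 0.07. It lies on the minus strand of chr1:145996735-145996761, 175 to 163 bases before the start, with the palindrome in capitals.
TXNIP: gccaggaGCACACCGTGTCCacgcgcc
A match of letters is a description and not a binding site, and distal elements lie outside these windows.

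Repression by the receptor was examined at 25 inflammatory genes on the array. IL1B, CCL2, CCL4, TNF, MMP9 and VCAM1 were over background on no MM1R array, IL6 and PTGS2 on 1, and 16 genes were tested. Of these 0 were called, 4 were higher and 12 lower, with a median of -0.0102 (-0.0381 without Dex replicate 1) and 15 of 16 intervals within 1.5-fold. ICAM1, an adhesion molecule induced by NF-kB, read 7.22, 7.33 and 7.25 with Dex and 7.30, 7.51 and 7.45 untreated, a change of -0.16 ± 0.09. NFKB2, the NF-kB subunit p100, read 8.53, 8.65 and 8.75 against 8.76, 8.82 and 8.80. Its Dex arrays lay just below the untreated arrays, by -0.15 ± 0.11 (-0.09 without Dex replicate 1). NFKB1 changed by 0.16 ± 0.11 and IER3, an early response gene, by 0.15 ± 0.11 (0.08 without that array), both with overlapping groups.

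Cell cycle genes fell in MM1S, and none of them passed the test in MM1R. Of 36 tested DNA replication genes 0 were called, 29 were higher and 7 lower in MM1R, with a median of 0.0688 (0.0438 without Dex replicate 1), and all 36 intervals lay within 1.5-fold. In MM1S 36 fell at an adjusted limma p under 0.05 in at least 1 probe, and 35 by the brightest probe, with a median of -1.10. The exception was ORC6, a subunit of the origin recognition complex, whose brighter probe gave -0.03 and whose other probe gave -1.21. Of 40 mitotic genes 0 were called, 19 were higher and 21 lower in MM1R, with a median of -0.00765, and all 40 lay within 1.5-fold. All 40 fell in MM1S, with a median of -1.46. The difference between the lines passed in at least 1 probe for 36 of 36 and 40 of 40 genes, and by the brightest probe for 35 and 40.

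MCM2, a subunit of the replicative helicase, read 10.24, 10.45 and 10.30 with Dex and 10.41, 10.50 and 10.29 untreated. MCM4, another subunit, read 11.72, 11.43 and 11.42 against 11.24, 11.46 and 11.22. In both genes the groups overlapped, and the changes were -0.07 ± 0.11 and 0.22 ± 0.12 (0.12 for MCM4 without Dex replicate 1), while in MM1S MCM2 fell to 0.42 and MCM4 to 0.328 of the untreated level. MCM5 and MCM10 changed by 0.06 ± 0.11 each, where MM1S gave -1.10 and -1.41. MCM3 at 0.22 ± 0.11 and the GINS subunit GINS4 at 0.21 ± 0.11 had intervals from -0.02 and -0.03 upwards, and without Dex replicate 1 their changes were 0.11 and 0.25. CDT1, which licenses replication origins, had the highest change of the list at 0.24, and 0.15 without that array. PCNA, the sliding clamp of the polymerase, changed by -0.14 ± 0.15, and by -0.03 without it.

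CDK2, the kinase that starts S phase, read 9.86, 10.16 and 10.05 with Dex and 10.27, 10.13 and 9.95 untreated. The groups overlapped, the change was -0.10 ± 0.12 (-0.36 to 0.17; -0.01 without Dex replicate 1), and in MM1S it was -1.13 ± 0.13. CDC25A, the phosphatase that activates CDK2, changed by -0.13 ± 0.12 in MM1R (-0.05 without that array) and -1.35 ± 0.14 in MM1S. Its other tested probe gave 0.19 in MM1R. The mitotic checkpoint kinase BUB1 read 10.33, 10.26 and 10.72 against 10.35, 10.41 and 10.76, a change of -0.07 ± 0.15 where MM1S gave -1.71. NCAPG, a condensin subunit, and GTSE1, a microtubule-associated protein of G2 and S phase, changed by 0.08 ± 0.13 and -0.05 ± 0.11. BIRC5 (survivin) and AURKB, both of the chromosomal passenger complex, changed by 0.14 ± 0.11 and -0.14 ± 0.11.

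Of 19 genes that control G1 0 were called, 7 were higher and 12 lower, with a median of -0.0645 (-0.0145 without Dex replicate 1). CDKN1B, the CDK inhibitor p27, read 10.73, 10.90 and 10.74 with Dex and 11.14, 11.23 and 10.88 untreated. The highest Dex reading exceeded the lowest untreated reading, and the change of -0.29 ± 0.12 (-0.55 to -0.03) stayed at -0.26 without Dex replicate 1. Its other probe gave -0.27. CDKN1A, the inhibitor p21, changed by 0.18 ± 0.11 and CCND3, cyclin D3, by 0.21 ± 0.14 in MM1R, where MM1S gave 1.28 for CCND3. CCND2, cyclin D2, changed by -0.14 ± 0.10. Without Dex replicate 1 CCND3 changed by 0.05 and CCND2 by -0.05.

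Among genes of apoptosis, 17 pro-apoptotic and 9 anti-apoptotic genes were tested and 0 were called. The medians were 0.0149 and 0.0528, and without Dex replicate 1 the second was -0.0256. CYCS, cytochrome c, read 7.44, 7.99 and 7.89 with Dex and 8.21, 8.13 and 7.97 untreated. The groups overlapped at the top of the Dex arrays, and the change of -0.33 ± 0.14 became -0.17 without Dex replicate 1. PMAIP1 (NOXA), a BH3-only gene, read 7.19, 7.12 and 7.23 against 7.35, 7.36 and 7.38, close to background, and its Dex arrays lay wholly below at -0.18 ± 0.08. CASP6, an executioner caspase, lay wholly above at 0.17 ± 0.10, but its other tested probes gave 0.05 and -0.09. BCL2, the anti-apoptotic founder of its family, read 9.92, 10.18 and 9.78 against 10.47, 10.15 and 9.92, with a change of -0.22 ± 0.15 and overlapping groups. MCL1, on which plasma cells depend for survival, changed by -0.09 ± 0.14 (-0.24 without Dex replicate 1), and its other tested probe gave 0.34.

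Genes of plasma cell and myeloma identity numbered 17 tested, of which 4 were higher and 13 lower with a median of -0.0549, and 0 were called. SLAMF7, the target of elotuzumab, read 9.66, 9.45 and 9.45 with Dex and 9.78, 9.54 and 10.00 untreated, a change of -0.25 ± 0.13. POU2AF1, a B cell coactivator, changed by -0.19 ± 0.11. IL6R, the receptor of the myeloma growth factor IL-6, read 9.72, 9.82 and 9.76 against 9.55, 9.87 and 9.10. Its change of 0.26 ± 0.16 came with 1 low untreated array, and was 0.28 without Dex replicate 1. The other tested probe of IL6R gave 0.43. XBP1, the regulator of the secretory programme, changed by 0.08 ± 0.09 from the high level of 13.96 to 14.21 in untreated arrays.

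Metabolic and stress programmes were likewise bounded. Of 18 genes of cholesterol and fatty acid synthesis 0 were called and 18 intervals lay within 1.5-fold, with a median of 0.0233 (-0.00462 without Dex replicate 1). In MM1S 13 of 18 fell, beside 17.8% of all genes. CYP51A1, which removes a methyl group from lanosterol, read 7.40, 7.33 and 7.39 with Dex and 7.54, 7.53 and 7.68 untreated, wholly below at -0.21 ± 0.09. FDPS, farnesyl diphosphate synthase, changed by 0.16 ± 0.16 and by -0.02 without Dex replicate 1. Of 18 amino acid and ER stress response genes 17 lay within 1.5-fold, with a median of 0.0272 (-0.0594 without Dex replicate 1). The exception was EDEM1, a factor of ER-associated degradation, which averaged 11.59 ± 0.54 (SD, n = 3) with Dex and 11.96 ± 0.13 without, and was lowest in Dex replicate 1. Its change of -0.36 ± 0.20 became -0.07 without Dex replicate 1.

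All 15 interferon-stimulated genes tested lay within 1.5-fold, with a median of -0.0238. IRF9, the DNA-binding subunit of ISGF3, had the lowest change, -0.23 ± 0.14, and -0.08 without Dex replicate 1. Among 16 genes of hypoxia and glycolysis 4 were higher and 12 lower, with a median of -0.0476. P4HA1, a collagen prolyl hydroxylase, read 9.13, 9.46 and 9.11 with Dex and 9.25, 9.72 and 9.49 untreated, a change of -0.26 ± 0.14 where MM1S gave 2.23. Of the metallothioneins, metal-binding proteins that GCs can induce, 3 were tested. MT2A changed by 0.01 ± 0.10, MT1X by -0.17 ± 0.10 and MT1E by -0.17 ± 0.12. Without Dex replicate 1 MT1X changed by -0.08 and MT1E by -0.07.

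The 10 housekeeping genes served as a background for these values. Their median was -0.00208 and their changes ran from -0.23 for B2M to 0.09 for GAPDH. B2M, the light chain of MHC class I, read 14.09, 14.27 and 14.34 with Dex and 14.37, 14.56 and 14.46 untreated, and GUSB changed by -0.18 ± 0.10. In both genes the Dex arrays lay wholly below the untreated arrays, and neither passed the test. The other tested probe of B2M gave -0.06. Over all 15 lists 278 of 347 genes were tested. At an unadjusted limma p under 0.05, 1 was higher (1.28% of all genes were) and 5 were lower (0.906%), 272 lay within 1.5-fold and 278 within 2-fold.

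The genes called in MM1S, chosen on arrays that share no sample with MM1R, were then read in MM1R. Of 120 genes that rose in MM1S 112 were measured in MM1R, where 0 were called, 33 were higher and 79 lower. Their median was -0.0473 against 1.22 in MM1S, and the changes ran from -0.31 to 0.21. The MM1R interval excluded the MM1S estimate for 112 genes and half-size changes, in log2 units, for 111 (99.1%). Of 224 genes that fell in MM1S 224 were measured, 0 were called, 119 were higher and 105 lower. Their median was 0.012 against -1.27, and 224 intervals (100%) excluded half-size changes. The changes ran from -0.24 to 0.53. Within 1.5-fold lay 210 of these 224 intervals and 109 of the 112 of the risen genes. At an unadjusted limma p under 0.05, 6 of the fallen genes were higher and 0 lower. Of the risen genes 0 were higher and 3 lower, and over all genes 1.28% were higher and 0.906% lower. Without Dex replicate 1 the medians were -0.0644 and -0.00812.

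Among the strongest MM1S responders outside the receptor list, ZC3H12A, an RNase that degrades inflammatory mRNAs, read 8.39, 8.31 and 7.84 in MM1R with Dex and 8.34, 8.30 and 7.98 untreated. This was a change of -0.02 ± 0.15 against 2.77 ± 0.13. HES6, a helix-loop-helix factor, had the strongest fall in MM1S, -2.27 ± 0.17, and read 10.98, 10.75 and 10.66 against 10.90, 10.83 and 10.68 in MM1R. Its change there was -0.01 ± 0.12. SCD, the stearoyl-CoA desaturase, PBK, a mitotic kinase, INSIG1, which retains sterol regulators in the ER, and TMSB15A, a thymosin, changed by -0.06, 0.01, 0.05 and -0.03 in MM1R. In MM1S the changes of these 4 genes were -1.95, -1.91, -1.89 and -1.88.

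A score per array, the mean of the risen genes minus that of the fallen genes relative to the untreated arrays of the line, was -0.075, -0.020 and -0.125 in Dex-treated MM1R. It was -0.027, 0.005 and 0.022 in untreated MM1R and 3.004, 2.719 and 2.397 in Dex-treated MM1S. The MM1R mean of -0.073 ± 0.053 (SD, n = 3) was -2.71% of the MM1S mean, on the other side of 0. Across the 336 genes the changes in both lines had a Pearson r of -0.262. The slope of the MM1R on the MM1S change, for a line through the origin, was -0.0222 (-0.0207 without Dex replicate 1). Both values are a description over genes that share arrays and the scaling.

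**Figure D4:**
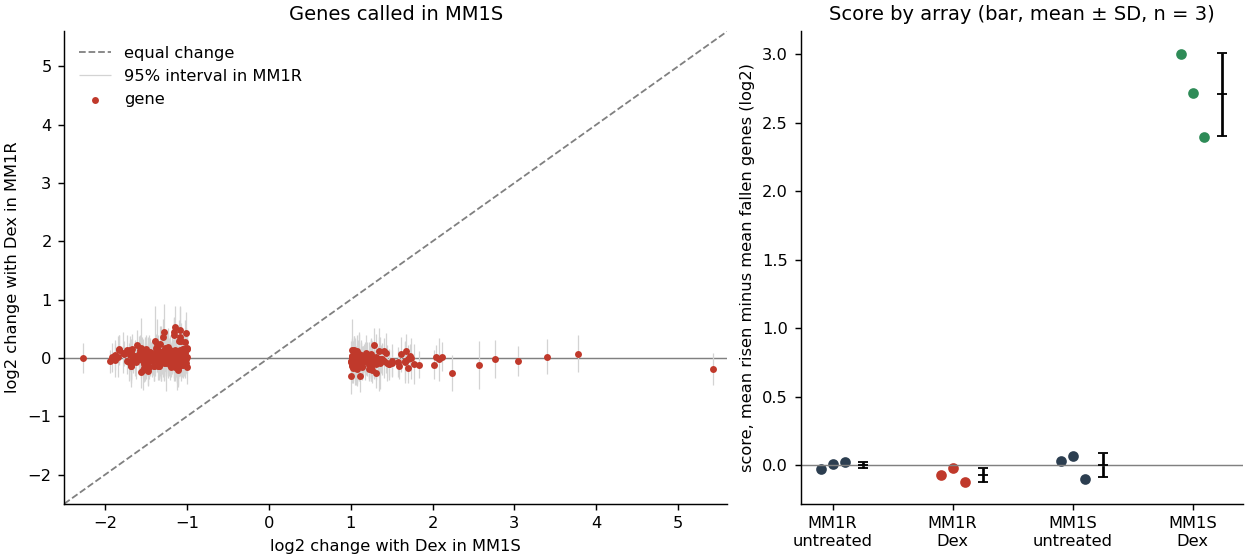
Left, log2 change with Dex in MM1R (with its 95% interval) against MM1S for the 336 genes called in MM1S and measured in MM1R, with a dashed line of equal change; right, the score of these genes by array, with mean ± SD (n = 3). The MM1R changes lie between -0.31 and 0.53, and the Dex-treated MM1R arrays score -0.125 to -0.020 against 2.397 to 3.004 in MM1S.

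Lastly, the largest differences in MM1R were listed among genes whose 3 Dex arrays did not overlap the 3 untreated arrays, which held for 329 genes above (3.21%) and 377 below (3.67%). In the 10 largest above, Dex replicate 1 was the highest of the 6 arrays every time. DDX17 read 10.38, 9.33 and 9.19 with Dex and 8.81, 8.85 and 9.09 untreated, and its change of 0.72 ± 0.24 became 0.35 without that array. RNA18SN5 read 12.77, 11.56 and 11.67 against 11.37, 11.39 and 11.38, with a change of 0.62 that became 0.23. BARD1, the partner of BRCA1 in DNA repair, read 11.28, 10.19 and 10.19 against 10.11, 10.07 and 10.17, with 0.44 that became 0.08. In each of these genes Dex replicate 1 stood at least 1 log2 unit above both other Dex arrays.

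Without Dex replicate 1, SNORD110 went from 0.54 to 0.22, ASXL2 from 0.45 to 0.12, HOOK1 from 0.44 to 0.20 and BBX from 0.48 to 0.35. RINL, a Rab5 exchange factor family member, read 9.20, 9.04 and 8.86 against 8.69, 8.42 and 8.61, and its change of 0.45 ± 0.12 was 0.37 without Dex replicate 1. NOMO3, of a family of near-identical copies, read 8.98, 8.97 and 8.87 against 8.50, 8.71 and 8.28, with 0.44 and 0.43. CCNY, the membrane-anchored cyclin Y, changed by 0.61 ± 0.17 and 0.39 without that array, but its other probe gave 0.08.

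Of the 10 largest below, Dex replicate 1 was the lowest array in 6. CYSTM1, a small membrane protein, read 8.99, 9.33 and 8.90 against 9.50, 9.55 and 9.33, a change of -0.39 ± 0.13, and -0.35 without that array. ICE1, a subunit of the little elongation complex that transcribes small nuclear RNA genes, read 7.38, 7.43 and 7.65 against 7.85, 7.91 and 7.80, with -0.36 ± 0.10 and -0.31. FNDC3A read 7.99 to 8.03 on the 3 Dex arrays against 8.44, 8.29 and 8.21, and its probes gave -0.31 and -0.33. The remaining genes below were ARPC4, STRN3, LOC100129034, MICOS10, DAPK3, MTMR12 and PLAAT4, at -0.36 to -0.30. Of these ARPC4 moved most without Dex replicate 1, to -0.19, and its other tested probe gave 0.04. No gene of these 20 passed the adjusted test.

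Over the 50 genes with the largest difference of either sign, 46 were higher with Dex and Dex replicate 1 was the most extreme array in 45. Their median size was 0.441 log2 units, and 0.224 without that array, when 0 exceeded 1.5-fold. These genes, like those listed above, were chosen with that array included. A smaller size without it therefore follows in part from the choice. Over single probes the lowest change was -0.77, in a probe for the ribosomal protein gene RPL10A that was not its brightest and read 9.72, 11.82 and 12.15 with Dex and 11.98, 11.67 and 12.36 untreated.

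**Figure D5:**
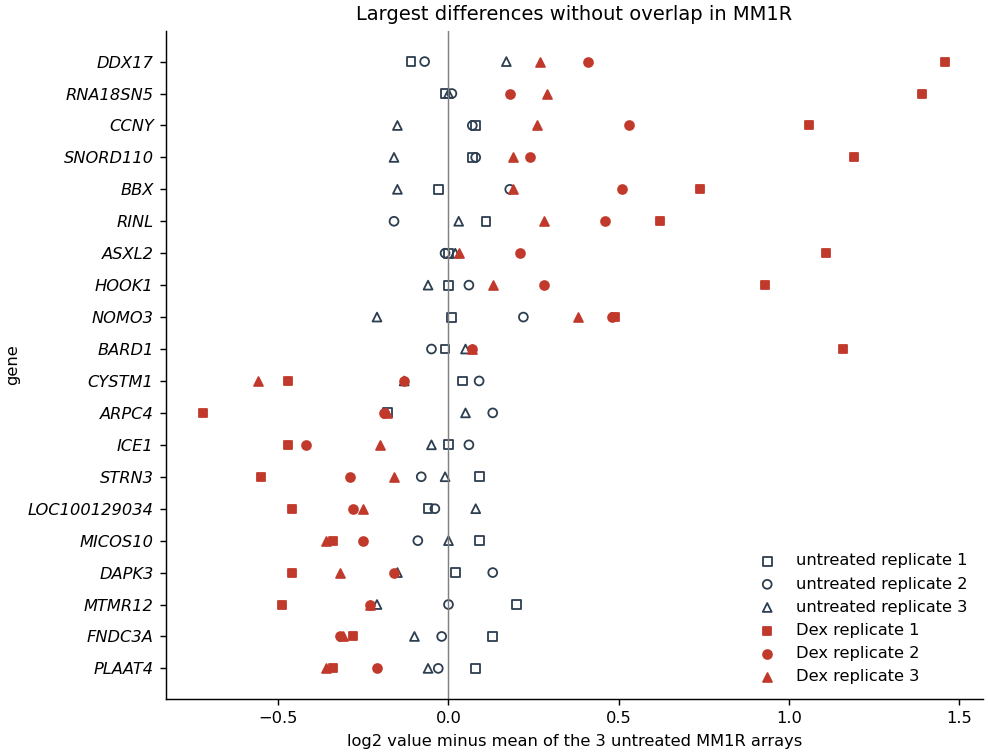
The 10 largest differences above and 10 below among genes whose groups do not overlap, as log2 values relative to the mean of the 3 untreated MM1R arrays. Squares, circles and triangles are replicates 1, 2 and 3, filled for Dex; the square of Dex replicate 1 lies farthest right in all 10 genes above.

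A change from or to background could escape a fold change. In all, 69 probes were over background on 3 Dex arrays and on no untreated array, and 39 the other way, beside 14377 that were so on all 6 arrays. The mean differences of these probes had medians of 0.168 and -0.163 log2 units and none exceeded 0.312, so that each lay next to the background limit.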

How the data were processed

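RNA of MM1R and MM1S cells was measured on Illumina HumanHT-12 arrays. The authors read bead intensities with beadarray and quantile normalized them, and the deposited table holds log2 intensities of all 24 arrays. The method behind the detection p-value of each probe, deposited by the authors, is not given in the sources used here. The submitters' processing notes name limma 3.14.1. The deposited intensities before normalization served only alternatives.

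Here limma 3.58.1 in R 4.3.3 (lmFit, eBayes with trend) was fitted to the 6 arrays, with Benjamini-Hochberg adjusted p over 18031 probes. Intervals are 95% intervals of that fit. Alternatives changed the normalization, background step, filter, arrays in the fit, trend, weights, replicate block, probe choice and thresholds, and left out each array. The fit was tested on simulated data. Plots used matplotlib. Of 47224 probes 4 had a missing value, 30106 carry 1 gene symbol in the platform annotation, 8 several and 17106 none. Named were receptor-induced genes, genes the study names, the 10 largest differences each way without overlap, up to 2 genes each way per list by p, and the 5 strongest MM1S responders each way. The members, lists and rule were chosen with earlier results of these data known.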

Additional observations from a re-analysis of the deposited data

Results flagged for a closer look

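The Dex effect differed between MM1R and MM1S, by the test of the difference itself (limma, 12 arrays, adjusted p under 0.05 in at least 1 probe of a gene), in 23 of 32 receptor-induced genes, in 36 of 36 DNA replication genes and in 40 of 40 mitotic genes. By the brightest probe alone the counts were 22, 35 and 40. The receptor-induced genes had the lower effect in MM1R, with DDIT4 at -5.63 ± 0.15, and the replication and mitotic genes the higher one, with MCM4 at 1.83 ± 0.19 and HMMR, a spindle protein, at 1.99 ± 0.16. Over all 11559 genes 9.65% and 9.66% differed in these directions. Groups of 3 arrays are too small for a search of outlying samples by range.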

How the results depend on the processing

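The count of genes called in MM1R was 0 under other normalizations (own quantile scaling of all 24 or of the 6 arrays, median centring, normexp), filters, fits of 12 or 24 arrays, eBayes without trend, array weights, probes in place of genes, an adjusted p under 0.05 at any fold or under 0.001, and without each array in turn. The lowest adjusted limma p over these fits was 0.3908, with 24 arrays. An unadjusted p under 0.05 with a fold over 1.5 in any probe gave 8 genes. Without a filter, 20034 of 20045 genes lay within 2-fold and 19883 within 1.5-fold. Bonferroni intervals gave 6511 and 8 genes. The share within 1.5-fold ran from 94.7% with normexp to 99.3% with array weights, and from 94.8% to 99% without single arrays.

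The replicate numbers of titles and descriptions disagree for untreated MM1R. Same-numbered arrays correlated in their deviations at 0.0651, 0.4 and 0.309 by title, and at -0.128, -0.393 and -0.152 by description. Not all passed 0.1, so the arrays were not taken as paired. Yet each Dex array lay nearest to the untreated array of its title number. With a replicate block by titles or by descriptions 0 genes were called, with a lowest adjusted p of 0.488 and 0.9997. With these blocks 579 and 230 genes had an unadjusted limma p under 0.05 in at least 1 probe, against 326 without a block. The block gave 25 and 23 receptor-induced genes whose effect differed from MM1S, against 23, and 21 to 25 over all alternatives. With only the brightest probe of each gene, chosen after seeing the data, it was 22. The MM1R medians of the genes that rose or fell in MM1S moved by less than the spread between arrays throughout, the second from 0.012 to -0.00812 without Dex replicate 1. At a detection p under 0.01, 38 probes in place of 69 were over background with Dex only. Of 2293 refitted values of the 121 named genes, 24 moved by over 1 SD and 0 were called. The setting with another probe gave 17 of these 24. Many of the values could not move. Fits with more arrays, without trend or with a replicate block left the log2 changes as they were. Genes with only 1 tested probe kept it in the setting with another probe. The share that moved is therefore no measure of stability.

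Limits: 3 arrays a group, all of 1 subclone, 1 dose and 1 time. Folds of dim genes are compressed, and genes under background, NR3C1 among them, have no bound. Earlier or later responses were not measured.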

Other observations

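HBB, the beta chain of hemoglobin, was over background on all 6 MM1R arrays, at 9.61 to 9.88 with Dex and 9.64 to 9.99 untreated, whereas the alpha chain gene HBA1 was so on 0 arrays and ALAS2, the erythroid enzyme of heme synthesis, on 1. The epithelial adhesion gene EPCAM was over background on all 6 arrays at 7.20 to 7.42, while KRT8 and KRT19 were so on none.

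The levels of receptor-induced genes in MM1R stood in no fixed relation to those of MM1S. Of 30 genes, all 6 MM1R arrays lay above all untreated MM1S arrays in 6, among them TSC22D3 and DDIT4, and below them in 4, among them SCNN1G, a sodium channel subunit. In 23 genes all 6 MM1R arrays lay below all Dex-treated MM1S arrays. DDIT4 averaged 9.79 ± 0.12 (SD, n = 3) in untreated MM1R, 8.03 ± 0.03 in untreated MM1S and 13.46 ± 0.03 in Dex-treated MM1S. These are levels with no test.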
